A study of Mus musculus with 4 samples.

Results

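The wild-type (WT) transcriptome of mouse embryonic stem cells (ESCs) grown with 2 kinase inhibitors and LIF was described from the 2 libraries labelled WT. Its members were the rows at 1 RPKM or more in both libraries, ranked by mean RPKM. RPKM divides a gene's reads by transcript length and by library size, so levels can be compared between genes. Of 14099 named rows, 11612 were members (82.4%), and the Naa10 knockout libraries of the series entered no value. The cells came from the inner cell mass of C57BL/6 by JF1 hybrid blastocysts, from mothers carrying the Naa10 knockout and WT JF1 fathers, and the WT cells were littermates of the knockout cells. They grew in serum-free N2B27 with the Mek inhibitor PD325901, the Gsk3 inhibitor Chir99021 and LIF, first for 5 passages on irradiated mouse embryonic fibroblast (MEF) feeders and then for 5 passages without feeders. RNA was selected with oligo-dT beads. The labels call the 2 WT libraries biological replicates. Whether they were separate lines or separate cultures is not stated, so the spread between them may not hold the variation between lines. No strand-specific protocol was stated, so reads of a gene and of an antisense partner cannot be told apart.

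Mouse ESCs stand for the epiblast of the blastocyst before implantation. Pou5f1, Sox2 and Nanog form the centre of the network that keeps them unspecialised, LIF acts through Stat3, and blocking Mek and Gsk3 favours the naive state. Fibroblast feeders supply matrix and growth factors and are removed by passaging.

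Of the members, 11474 were genes or long RNAs and 138 were small RNA rows. Estimated from the steps in which microRNA hairpin rows move, the libraries held about 51215700 and 52283600 fragments, and genes near 1 RPKM rested on a median of 107 fragments (67 single-transcript genes between 0.9 and 1.1 RPKM). Another 2105 rows lay below 1 RPKM in both libraries and 382 reached it in 1 library. Just inside the limit were Ano3 (1.22 and 1.00 RPKM), Brdt (1.42 and 1.00) and Zfp612 (1.00 and 1.04), and just outside it Prr24 (1.22 and 0.999), Arhgef37 (0.999 and 1.31) and Zbtb8b (1.27 and 0.9998). The median long member had 10.5 RPKM in WT replicate 1 and 10.4 in WT replicate 2. The lower quartile of the long members was 3.96 RPKM, the upper quartile 28.3 and the 99th percentile 689.7.

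The labelled cell type was checked against its markers first. Pou5f1, the POU factor of pluripotent cells, had 808 and 815 RPKM in WT replicates 1 and 2 (812 ± 4.91, SD, n = 2) and ranked 106 of the long members. Nanog, a homeobox factor, had 258 and 253 RPKM (256 ± 3.24). Esrrb, a nuclear receptor of the naive state, had 246 and 245 RPKM (246 ± 1.04). All 3 thus lay far above the median member, with library values within a few percent of each other. Sox2, the DNA-binding partner of Pou5f1, had 215 and 219.9 RPKM (217 ± 3.62). Zfp42, a zinc finger protein also known as Rex1, was the lowest of the 5 markers, with 34.2 and 35.3 RPKM (34.7 ± 0.795), and ranked 2392. All 5 markers were members, and nothing in their levels went against the label of the cells.

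**Figure D1:**
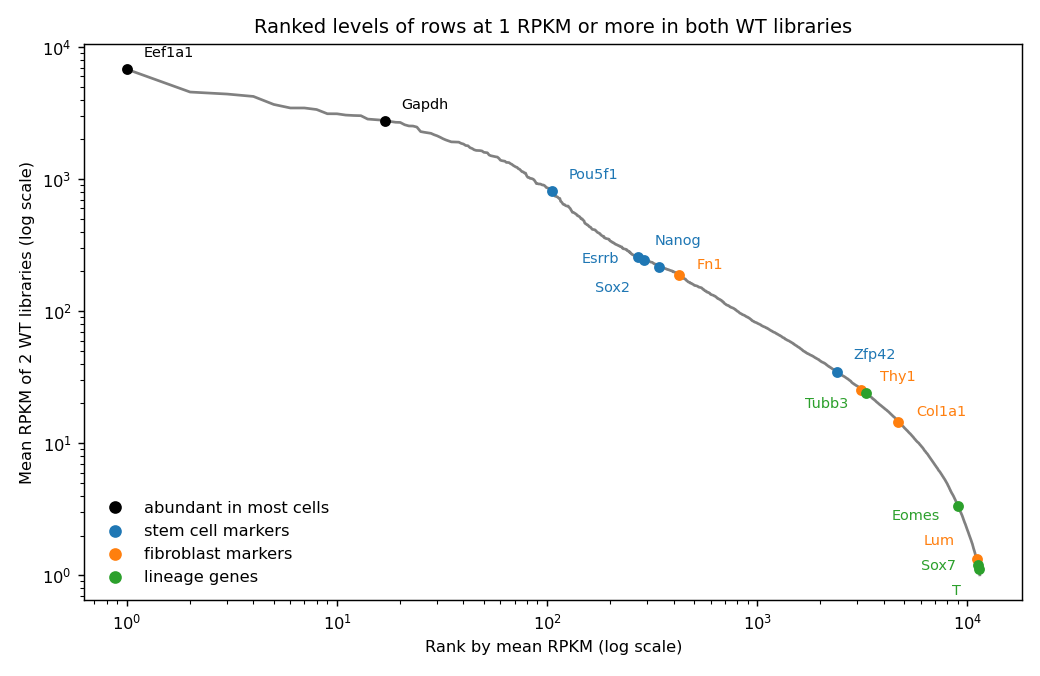
Mean RPKM of the 2 WT libraries against rank for the 11474 long members, both axes on log scales; the line joins all members and the points are named genes coloured by group. Pou5f1 sits at rank 106 and Zfp42 at rank 2392, while the lineage genes Sox7 and T sit near the 1 RPKM limit.

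The promoter windows of the markers were searched on both strands for TTTGCAT, 7 letters of the octamer that POU factors such as Pou5f1 bind. Windows came from RefSeq (build GRCm38.p6), ran from 250 bases before to 50 bases after the annotated start, and were matched by symbol for 10504 of 13428 long single-symbol rows. Of all matched windows, 3.58% held the letters, against 3 of the 5 marker windows. The 30 bases around each match are shown because they let the markers be compared directly, with the match in capitals (on the opposite strand in Sox2).
Nanog chr6:122707403-122707432 (plus strand): ttacagcttctTTTGCATtacaatgtccat
Sox2 chr3:34649885-34649914 (plus strand): cgccccctttcATGCAAAaccctctggcga
Zfp42 chr8:43307176-43307205 (minus strand): ctgaagaggcaTTTGCATaactgagcaaga
The match began 75 bases before the RefSeq start in Nanog, 99 before it in Sox2 and 185 before it in Zfp42. Over the lists, the letters were in 3 of 17 windows of general pluripotency factors, which are these same 3, in 2 of 18 of naive factors, in 0 of 17 of formative factors and in 2 of 23 of fibroblast markers. A gene can be on more than 1 list. A match is a description of the sequence and shows no binding.

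General pluripotency factors were high as a group. Here and in the other lists, the highest and lowest rows are those by mean level. Each list's count of members is to be read against the 82.4% of all rows that were members. In every row the highest of the 4 libraries of the series had at least 0.27 RPKM, so 82.4% is not a share of all genes. Counts and medians of a list cover only its genes with a row. All 22 rows of general pluripotency factors were members, where 82.4% of all rows were. Their medians were 99.8 and 103 RPKM in the libraries, and 12 reached a mean of 100 RPKM. The list's highest row joined Dppa5a, an RNA-binding protein of early embryos, with its neighbour Ooep at 2476 and 2578 RPKM, so the level of Dppa5a alone cannot be separated. Tdgf1, the Nodal co-receptor Cripto, had 349 and 346 RPKM, and Utf1, a chromatin-bound factor of pluripotent cells, had 299.9 and 295 RPKM. These exceeded Sall4, a zinc finger factor, at 79.2 and 75.7 RPKM. Lin28a, which blocks let-7 maturation, had 100.3 and 105 RPKM and L1td1, an RNA-binding protein derived from a transposon, had 99.4 and 102 RPKM. Lin28b, the relative of Lin28a, was the lowest row of the list, with 5.31 and 5.98 RPKM.

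Naive factors were all members too (30 of 30), with list medians of 70.9 and 68.2 RPKM, and the joined row of Dppa5a and Ooep was the highest here too. The Klf factors were near the top: Klf2 had 297 and 297 RPKM, Klf5 had 320.0 and 267 RPKM and Klf4 had 205 and 191 RPKM. Klf5 differed more between the libraries than Klf2 did. Nr0b1, a nuclear receptor also called Dax1, had 110.3 and 109 RPKM, and Tbx3, a T-box factor, had 106 and 100.1 RPKM. Tcl1, an Akt co-activator, had 66.6 and 69.4 RPKM and Tfcp2l1, which links LIF and Gsk3 inhibition to self-renewal, had 60.3 and 57.4 RPKM. A lower tier held Dppa3 (Stella), which guards maternal methylation marks, at 37.9 and 44.0 RPKM and the receptor Nr5a2 at 25.5 and 25.1 RPKM. Gbx2, a Stat3 target, had 10.7 and 11.4 RPKM, and Prdm14, a repressor of Fgf signalling and of the de novo methyltransferases, had 7.31 and 7.86 RPKM. Nlrp4f was the lowest naive row, at 6.90 and 6.70 RPKM.

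The receptor side of the LIF pathway stood well below these factors. All 13 rows were members, with medians of 15.8 and 16.1 RPKM. Lifr, the receptor subunit specific to LIF, had 7.81 and 8.03 RPKM, Il6st (gp130), its signalling partner, had 22.5 and 20.9 RPKM, and the kinase Jak1 had 23.2 and 22.4 RPKM. Stat3, the transcription factor of the pathway, had 20.9 and 21.4 RPKM and Socs3, its feedback inhibitor, had 27.0 and 26.9 RPKM. The kinase Pim1 was the highest row (93.5 and 93.2 RPKM) and the kinase Jak2 the lowest (2.01 and 1.79 RPKM).

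Formative and primed factors, which come up as naive cells move on, had a lower list median than naive factors. Of 30 rows, 29 were members, and the list medians were 14.8 and 14.2 RPKM. Etv5 had 105 and 107 RPKM, Etv4 had 44.7 and 41.7 RPKM, and both encode ETS factors downstream of Fgf. Zic2, a zinc finger factor, had 35.2 and 37.8 RPKM. Tcf7l1, a Wnt effector that represses naive genes, had 38.9 and 38.0 RPKM, and Lefty2, a Nodal inhibitor, had 41.8 and 46.7 RPKM against 8.71 and 10.7 RPKM for Lefty1. Nodal, a growth factor of the epiblast, had 70.7 and 68.1 RPKM and the methyltransferase Dnmt3b had 52.3 and 53.9 RPKM. Among factors used to mark exit from the naive state, Pou3f1 had 15.4 and 13.7 RPKM, Otx2 had 4.21 and 4.50 RPKM, and Fgf5, a growth factor of the epiblast after implantation, had 2.76 and 2.78 RPKM. Pou3f1 and Lef1 (12.8 and 12.7 RPKM) lay above the median long member, and Otx2, Fgf5, Sox3 (5.57 and 5.45 RPKM) and Foxd3 (4.71 and 5.06 RPKM) below it. Cer1, a Nodal and Bmp antagonist, was the list's only row outside the members, at 0.297 and 0.234 RPKM.

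The mesoderm, endoderm and neuroectoderm lists had medians near the 1 RPKM limit. Of their listed genes, 6 of 25, 4 of 24 and 9 of 25 had no row and enter no count or median. The mesoderm and primitive streak list had 7 members of 19 rows (11 with a limit of 0.5 RPKM and 0 with one of 5 RPKM), with medians of 0.834 and 0.735 RPKM. Its highest row was the T-box factor Eomes at 3.32 and 3.38 RPKM. T (Brachyury) had 1.18 and 1.04 RPKM, and Gata2 had 1.60 and 1.55 RPKM. Hand1 (1.21 and 0.735 RPKM), Kdr (0.537 and 0.548), Gsc (0.464 and 0.474) and Mixl1 (0.272 and 0.257) were not members. At equal transcript length, values this low rest on fewer fragments than those at the limit. The order among them is not read here.

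The endoderm list had 11 members of 20 rows, with medians of 1.43 and 1.16 RPKM. Sox7 had 1.26 and 1.14 RPKM, Gata4 had 1.05 and 0.775, Sox17 had 0.820 and 0.617, Gata6 had 0.634 and 0.410, and Foxa2 had 0.293 and 0.185 RPKM. These are the transcription factors that define primitive or definitive endoderm, and Sox7 alone of the 5 was a member. Sparc, a matrix glycoprotein, had 137 and 129 RPKM, Lama1, a laminin chain, had 14.8 and 13.8 RPKM, and the adaptor Dab2 had 4.63 and 3.61 RPKM. The list's highest row joined Apoe with Tomm40 (854 and 853 RPKM), and among the lowest was the secreted Apoa1 (0.175 and 0.171 RPKM). All 11 members were higher in WT replicate 1 than in WT replicate 2, compared with 6140 of the 11474 long members.

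Neuroectoderm genes numbered 9 members of 17 rows, with medians of 1.16 and 1.32 RPKM. Tubb3, a neuronal tubulin, was highest with 23.3 and 24.4 RPKM, Nes, an intermediate filament of neural progenitors, had 4.89 and 5.34 RPKM, and Map2 had 3.02 and 3.36 RPKM. The transcription factors ran from Olig1 (6.35 and 6.57 RPKM), Olig2 (3.03 and 2.80 RPKM) and Neurod1 (2.54 and 1.97 RPKM) through Sox1 (1.16 and 1.32 RPKM) and Pax6 (0.843 and 1.04 RPKM) to Neurog1 (0.0937 and 0.144 RPKM). Dll1, a Notch ligand, had 5.91 and 6.15 RPKM. Trophoblast genes had 14 members of 19 rows and higher medians, 5.45 and 4.33 RPKM. Tfap2c, which also acts in naive cells and germ cells, had 14.7 and 15.01 RPKM, Krt8 and Krt18, the keratins of simple epithelia, had 14.0 and 10.6 RPKM and 13.4 and 10.3 RPKM, and Tead4 had 10.1 and 9.22 RPKM. Id2 was the highest row of the list (43.8 and 43.8 RPKM). The defining factors Gata3 (0.571 and 0.687 RPKM) and Cdx2 (0.353 and 0.286 RPKM) were not members. Mesp1, Neurog2 and Elf5 are not analysed here.

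Germ cell genes had 20 members of 25 rows (80%, against 82.4% of all rows), with medians of 3.94 and 3.27 RPKM. Tex19.1, which protects the germ line from transposons, had 26.2 and 25.2 RPKM, and Mael, a piRNA pathway protein, had 16.5 and 15.7 RPKM. Stra8, the retinoic acid target that licenses meiosis, had 13.5 and 11.4 RPKM, Sycp3, of the synaptonemal complex, had 9.84 and 9.64 RPKM, Dazl had 8.17 and 6.57 RPKM, and Ddx4 (Vasa) had 6.55 and 6.27 RPKM. Slc25a31, the germ cell ADP/ATP carrier, was not a member (0.503 and 0.422 RPKM), and Tdrd1 was lowest (0.336 and 0.255 RPKM). The 2-cell-like list holds genes of the early embryo that a small number of cells in ESC cultures switch on. It had 11 members of 13 rows (84.6%, against 82.4% of all rows), with medians of 1.74 and 1.76 RPKM. Another 12 listed genes are not analysed here, so these values cover only the genes with a row. Zscan4c had 2.04 and 2.19 RPKM and Zscan4d had 1.64 and 1.77 RPKM, but the Zscan4 copies are near-identical and share reads, so their separate levels are uncertain. Its highest row was Eif1a (73.8 and 78.3 RPKM), a translation factor with wide expression, and its lowest was Gm13119 (0.627 and 0.476 RPKM).

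**Figure D2:**
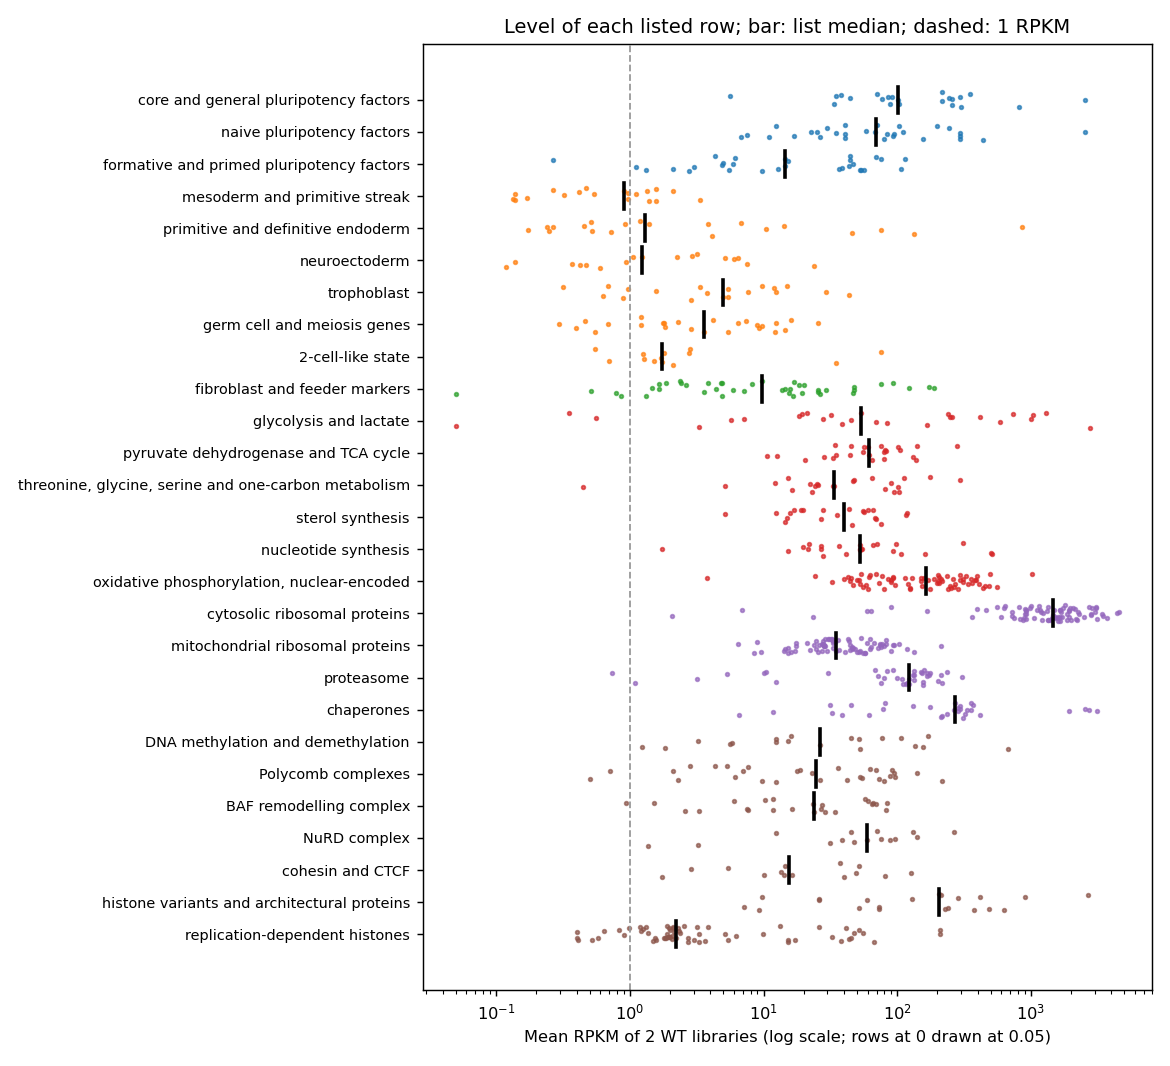
Mean RPKM of the 2 WT libraries (log scale) for every row of 27 gene lists, one point per row, with the list median as a bar, the 1 RPKM limit as a dashed line and rows at 0 drawn at 0.05. Cytosolic ribosomal proteins have the highest median and the mesoderm, neuroectoderm and endoderm lists the lowest.

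Genes used as fibroblast markers were measured 5 passages after feeders were last used, at mean levels from 0 to 188.8 RPKM. Of 43 listed rows, 39 were members (90.7%, against 82.4% of all rows), with medians of 9.16 and 10.4 RPKM and summed levels of 1118 and 1136 RPKM. Of the fibrillar collagens, main products of fibroblasts, Col1a1 had 14.3 and 14.9 RPKM, Col1a2 had 6.58 and 7.60 RPKM, and Col3a1 had 1.36 and 1.55 RPKM, so Col1a1 alone of them lay above the median long member. Thy1, a surface protein of fibroblasts and other cells, had 25.2 and 25.8 RPKM. Dcn (decorin) had 17.0 and 20.1 RPKM and Postn (periostin) had 13.1 and 14.1 RPKM. Lum (lumican), another small proteoglycan of connective tissue, reached 1.11 and 1.54 RPKM. Twist1 (5.96 and 5.96 RPKM), Pdgfrb (2.57 and 2.30 RPKM) and Prrx1 (1.72 and 1.98 RPKM), regulators and a receptor of mesenchymal cells, were also members. Summed over the 10 markers used to define feeders, the level was 88.9 and 95.8 RPKM, or 5.69% and 6.11% of the summed level of the 5 stem cell markers. This share depends on which and how many genes are summed and is not a share of cells. None of the 10 was at 0. Snai2, Col6a3, the row joining Pdgfra with Mir7025 and Igfbp7 are on the list but not among the 10, and were not members.

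Genes of the list that many cell types use stood higher than the collagens. Fn1 (fibronectin) was the highest row, with 188 and 189 RPKM, Lgals1 (galectin) had 171 and 174 RPKM, Vim (vimentin) had 118 and 128 RPKM, Acta2 had 26.1 and 26.4 RPKM, and Tagln, another protein of contractile cells, had 19.7 and 20.2 RPKM. Cyr61 and Ctgf, matricellular proteins that many cells induce, had 98.9 and 88.4 RPKM and 76.5 and 73.7 RPKM. Igfbp7 was listed at 0 in both libraries, which can be a failed estimate. Of the 39 members, 27 were higher in WT replicate 2, whereas 46.5% of all long members were, with a median log2 difference of 0.06. This tilt was not particular to the list. Among chaperone members 27 of 31 and among proteasome members 31 of 37 were higher in WT replicate 2, each with a median difference of 0.06. Other lists leaned the opposite way, such as sterol synthesis, with 6 of 22 higher in WT replicate 2. Which cells these RNAs came from was not tested, and in bulk RNA fewer cells of a type and less RNA per cell cannot be told apart. Defining markers of other cell types were mostly near the limit. Summed levels were 3.77 and 2.94 RPKM for 4 markers of primitive endoderm, 0.924 and 0.973 for 2 of trophoblast, 2.01 and 2.36 for 2 of neuroectoderm and 1.45 and 1.30 for 2 of mesoderm, with none at 0. Csf1r, of macrophages, had 0.256 and 0.271 RPKM, while Lyz2, a lysozyme of myeloid cells, had 27.4 and 30.8 RPKM. Pecam1, an adhesion protein that endothelium and naive ESCs both carry, had 12.7 and 12.1 RPKM. The blood list's highest row joined Cd68 with the translation factor Eif4a1 and with Senp3 (1346 and 1391 RPKM), so it says nothing about Cd68 itself. Ptprc and Cdh5 are not analysed here.

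At the top of the ranking stood the protein synthesis machinery. Among the 15 highest long rows were Eef1a1, Rpl41, Rps26, the joined row of Bax and Ftl1, Rpl23a, Rplp1, Ptma, Rps27, Hspa8, Rps28, Rps2, Rpl35 and Rpl38. Eef1a1, which brings aminoacyl-tRNA to the ribosome, had 6792 and 6817 RPKM (6805 ± 17.1, n = 2). Rpl41 had 4557 and 4592 RPKM and Rps26 had 4447 and 4386 RPKM. Named rows outside protein synthesis were Ptma, a small acidic nuclear protein, at 3461 and 3466 RPKM, the chaperone Hspa8 at 3078 and 3180 RPKM, and the Bax and Ftl1 row at 4218 and 4254 RPKM, where Ftl1 encodes ferritin light chain. The 10, 100 and 1000 highest long members held 7.65%, 35.6% and 68.8% of the summed mean RPKM of long members, and 286 rows held 50%.

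All 84 rows of cytosolic ribosomal proteins were members, with medians of 1436 and 1471 RPKM, and together they made up 24.5% of the summed RPKM of long rows. The canonical genes spanned a wide range although their proteins enter the ribosome in near-equal numbers: Rplp0, of the stalk, had 2022 and 2133 RPKM, Rpsa had 1334 and 1345 RPKM, and Rps27a had 691 and 757 RPKM. Ribosomal protein genes have many processed pseudogenes that can share or take their reads, so single levels are uncertain. Tissue-restricted relatives were far lower, with Rpl39l at 6.29 and 7.63 RPKM and Rpl3l, of muscle, lowest at 2.29 and 1.85 RPKM. Of the 84 rows, 71 were higher in WT replicate 2, where 46.5% of all long members were, with a median log2 difference of 0.03. Mitochondrial ribosomal proteins were also all members (77 of 77), but with medians of 35.0 and 35.9 RPKM. Their highest row was Mrpl42 (214 and 209 RPKM), Mrpl12 had 103 and 104 RPKM, and Mrpl41 was lowest (6.92 and 6.03 RPKM).

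Messages of the translation machinery often begin with a run of C and T, the 5′ terminal oligopyrimidine tract through which mTOR signalling controls their use. A run of 10 or more C or T letters within 15 bases of the RefSeq start was found in 20 of 61 matched ribosomal protein windows (32.8%), against 8.99% of all matched windows and 8.31% of those of the top tertile of members by level. The 40 bases on each side of the start are shown for the 6 ribosomal protein genes among the 15 highest rows that had a window, with the longest run of at least 5 C or T letters near the start in capitals.
Rpl41 chr10:128549129-128549208 (minus strand): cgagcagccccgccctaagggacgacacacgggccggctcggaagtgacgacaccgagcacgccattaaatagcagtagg
Rps26 chr10:128626467-128626546 (minus strand): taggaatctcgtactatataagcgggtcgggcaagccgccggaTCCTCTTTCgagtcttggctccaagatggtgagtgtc
Rps27 chr3:90213609-90213688 (minus strand): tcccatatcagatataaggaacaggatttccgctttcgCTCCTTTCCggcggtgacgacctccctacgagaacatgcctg
Rps28 chr17:33824523-33824602 (minus strand): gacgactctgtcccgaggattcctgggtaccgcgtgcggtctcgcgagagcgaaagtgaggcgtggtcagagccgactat
Rps2 chr17:24720023-24720102 (plus strand): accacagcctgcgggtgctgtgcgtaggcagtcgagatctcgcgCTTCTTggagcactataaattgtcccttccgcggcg
Rpl35 chr2:39005092-39005171 (minus strand): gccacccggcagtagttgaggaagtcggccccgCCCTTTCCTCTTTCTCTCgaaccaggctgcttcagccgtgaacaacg
Rpl35 had the longest run, of 18 letters starting 7 bases before the RefSeq start, and Rps26 and Rps27 had runs of 9 letters and Rps2 one of 6. No run lay within that distance in Rpl41 and Rps28. Annotated starts can lie some bases from those the cells use, so an absent run says only that these letters are not at the annotated position.

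Translation factors, proteasome subunits and chaperones were high as well. All 39 rows of translation factors were members (medians 194 and 199.8 RPKM). Tpt1, a growth-related protein, had 1821 and 1764 RPKM, Eef2, which moves the ribosome along the message, had 1476 and 1480 RPKM, and Eif5a had 1219 and 1256 RPKM. The lowest row was Eef1a2, the form of muscle and neurons, at 1.14 and 1.09 RPKM. Of 39 proteasome rows, 37 were members, with medians of 117 and 123 RPKM and Psmb3 highest (300.1 and 313 RPKM). Of the immunoproteasome subunits, Psmb10 had 9.41 and 10.8 RPKM, Psmb9 had 3.02 and 3.37 RPKM and Psmb8 had 0.882 and 1.32 RPKM, whereas a joined row with Psmb5, the constitutive counterpart of Psmb8, had 117 and 129 RPKM. Psma8, a testis subunit, had 5.08 and 5.52 RPKM and the thymus subunit Psmb11 was lowest (0.746 and 0.731 RPKM). All 31 chaperone rows were members (medians 269 and 275 RPKM). Hsp90ab1 had 2714 and 2757 RPKM, Hsp90aa1 had 1841 and 1976 RPKM, and the mitochondrial pair Hspd1 and Hspe1 had 302 and 321 RPKM and 348 and 368 RPKM. The heat-inducible Hspa1a and Hspa1b had 29.7 and 32.7 RPKM and 30.6 and 34.1 RPKM, but are near-identical copies, and Cryab had 12.4 and 11.2 RPKM. Hspa2, a testis chaperone, was lowest at 7.10 and 6.03 RPKM.

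Energy metabolism was measured on both the glycolytic and the mitochondrial side. Of 27 glycolysis rows, 24 were members (88.9%, against 82.4% of all rows), with medians of 53.7 and 53.0 RPKM. Gapdh, the enzyme that forms NADH in the pathway, had 2765 and 2737 RPKM and was the highest row, and Pkm, pyruvate kinase, had 1284 and 1308 RPKM. Aldoa had 1039 and 1025 RPKM, Eno1 had 1006 and 1009 RPKM, Pgk1 had 413 and 421 RPKM and Tpi1 had 252 and 258 RPKM. Uptake and release of the pathway's ends were covered too. The glucose transporters Slc2a3 and Slc2a1 had 237 and 241 RPKM and 169.7 and 163 RPKM, and the lactate transporters Slc16a1 and Slc16a3 had 44.5 and 46.4 RPKM and 27.4 and 28.3 RPKM. Hk2, the hexokinase bound to mitochondria in growing cells, had 38.8 and 39.0 RPKM against 20.1 and 18.3 RPKM for Hk1. Ldha, which turns pyruvate into lactate, had 718 and 754 RPKM against 84.9 and 83.8 RPKM for Ldhb. Hk3, of blood cells, was listed at 0 in both libraries, which can be a failed estimate.

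Every one of the 25 rows of pyruvate dehydrogenase and the TCA cycle was a member, with medians of 60.6 and 61.6 RPKM. Mdh2, malate dehydrogenase, was highest (282 and 277 RPKM), and Cs, citrate synthase, had 141 and 142 RPKM. Idh2 had 107 and 104 RPKM, Pdha1 had 77.1 and 81.6 RPKM and Sdha had 60.6 and 61.6 RPKM. The remaining named enzymes were Idh3a (54.7 and 55.6 RPKM), Fh1 (45.5 and 45.4 RPKM) and Ogdh (44.6 and 44.4 RPKM). Pcx, pyruvate carboxylase, was the lowest at 10.4 and 10.8 RPKM. Nuclear genes of oxidative phosphorylation were higher: all 72 rows were members, with medians of 166 and 163 RPKM. Rows were grouped into complexes by gene symbol alone, so Ndufa4 counts with complex I, and the groups need not match the complexes exactly. The median over rows was 84.9 RPKM for complex I (35 rows) and 237 for complex III (9 rows). For complex IV (12 rows) it was 288 RPKM and for complex V (15 rows) 295 RPKM. Atp5b, the catalytic subunit of ATP synthase, was highest (1011 and 1018 RPKM) and Atp5a1 had 487 and 496 RPKM. Cox6a1 had 568 and 552 RPKM, Ndufa4 had 377 and 381 RPKM and Uqcrc1 had 171 and 167 RPKM. Cox4i2, the lung form of a cytochrome oxidase subunit, was lowest at 4.45 and 3.08 RPKM against 396 and 422 RPKM for Cox4i1. Ndufs1, Cox6a2 and Cox7a1 are not analysed here.

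Mouse ESCs are known to feed one-carbon metabolism from threonine. Tdh, threonine dehydrogenase, which starts this route, was the highest row of the threonine, glycine and one-carbon list, with 282 and 305 RPKM (294 RPKM on average). The next step, Gcat, was measured in a row joined with Galr3, at 33.3 and 32.9 RPKM, and Gldc, of the glycine cleavage system, had 46.5 and 49.0 RPKM. Ahcy, which clears the product of methylation reactions, had 170.2 and 181 RPKM and Mat2a, which makes the methyl donor, had 87.3 and 93.7 RPKM. Serine synthesis was represented by Psat1 (110.97 and 112 RPKM) and Phgdh (81.3 and 79.3 RPKM), and folate cycling by Shmt1 (101 and 104 RPKM), Shmt2 (101 and 101 RPKM), Mthfd1 (65.4 and 64.3 RPKM) and Mthfd2 (46.2 and 47.9 RPKM). In all, 22 of 23 rows were members, with medians of 34.5 and 32.9 RPKM, and Aldh1l2 was lowest (0.433 and 0.467 RPKM).

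Biosynthetic lists had nearly all their rows among the members, where 82.4% of all rows were. For sterol synthesis it was 22 of 22 (medians 41.0 and 38.4 RPKM), with Fdps highest (119 and 117 RPKM), and Sqle, squalene epoxidase, at 56.0 and 55.9 RPKM. Hsd17b7 was lowest (5.14 and 5.17 RPKM). For fatty acid synthesis it was 14 of 15, led by Acly, which supplies acetyl-CoA, at 124 and 125 RPKM, with Fasn at 65.2 and 65.6 RPKM, Acaca at 19.6 and 20.4 RPKM and Scd1 at 24.4 and 22.8 RPKM. Elovl1 was listed at 0 in both libraries, which can be a failed estimate. For nucleotide synthesis it was 24 of 24 (medians 52.3 and 53.6 RPKM). Paics, of purine synthesis, had 303 and 315 RPKM, the ribonucleotide reductase subunits Rrm2 and Rrm1 had 162 and 159 RPKM and 51.9 and 54.2 RPKM, and Impdh1 had 27.5 and 28.1 RPKM. The list's highest row joined Impdh2 with Qars and Qrich1 (506 and 517 RPKM), and its lowest was Rrm2b, which p53 controls (1.80 and 1.67 RPKM).

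Among chromatin genes, the DNA methylation list had all 19 rows among the members, with medians of 27.8 and 24.9 RPKM. Trim28, the co-repressor that KRAB zinc finger proteins recruit, was highest with 656 and 691 RPKM (674 RPKM on average), and Zfp57, such a protein that protects imprints, had 164 and 149 RPKM. The maintenance enzymes Dnmt1 and Uhrf1 had 77.2 and 75.8 RPKM and 132 and 139 RPKM. Of the de novo enzymes, Dnmt3b had 52.3 and 53.9 RPKM and Dnmt3a had 15.3 and 15.1 RPKM, while their cofactor Dnmt3l had 174 and 168 RPKM. Of the dioxygenases that start demethylation, Tet2 had 27.8 and 24.9 RPKM, Tet1 had 16.0 and 15.8 RPKM and Tet3, the form of the oocyte, was the lowest row at 1.28 and 1.19 RPKM.

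Polycomb genes, which silence developmental regulators, gave 28 members of 30 rows (medians 24.2 and 25.5 RPKM). In the core of PRC2, Eed had 94.2 and 97.6 RPKM, Suz12 had 93.0 and 94.8 RPKM and the methyltransferase Ezh2 was lower, at 68.6 and 69.9 RPKM. Its accessory subunits Jarid2 and Mtf2 had 78.6 and 79.8 RPKM and 63.0 and 62.5 RPKM, and Ezh1 had 7.39 and 6.56 RPKM. In PRC1, Phc1 was the highest row (224 and 209.7 RPKM), the ubiquitin ligase Rnf2 had 43.0 and 41.9 RPKM, Cbx7 had 35.7 and 36.1 RPKM and Pcgf6 had 25.6 and 27.5 RPKM. Cbx2 (5.46 and 5.24 RPKM) and Bmi1 (2.07 and 2.49 RPKM), subunits of PRC1 in differentiated cells, were lower, and Cbx8 was lowest (0.526 and 0.483 RPKM).

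Heterochromatin genes had 19 members of 20 rows, with Cbx1 at 141 and 146 RPKM, Cbx3 at 109.6 and 136 RPKM and Cbx5 at 35.6 and 36.2 RPKM, the 3 forms of HP1. The methyltransferases Ehmt2 and Setdb1 had 53.2 and 52.7 RPKM and 22.4 and 20.9 RPKM. Suv39h1 appeared in 2 rows, at 11.3 and 13.0 RPKM and at 4.95 and 0 RPKM, so its level is uncertain. H3K4 genes were all members (18 of 18), from Dpy30 at 203 and 205 RPKM and Kdm5b at 88.8 and 88.7 RPKM to Kmt2d at 3.96 and 3.85 RPKM, with Wdr5 at 83.5 and 82.4 RPKM and the H3K27 demethylase Kdm6a at 16.0 and 16.1 RPKM. Cohesin and CTCF genes were all members as well (14 of 14), with Rad21 at 129 and 126 RPKM, Ctcf at 51.9 and 51.6 RPKM, Smc1a at 48.8 and 50.1 RPKM, its meiotic form Smc1b at 2.74 and 2.97 RPKM and Ctcfl, the germ cell relative of Ctcf, lowest at 1.88 and 1.60 RPKM.

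Chromatin remodellers of the BAF complex had 23 members of 24 rows (medians 24.1 and 23.4 RPKM). The ESC form of the complex is known for Smarca4 (Brg1) as its ATPase and for a pair of Smarcc1 subunits. Smarcc1 was the highest row, with 82.6 and 83.8 RPKM, against 6.12 and 5.99 RPKM for Smarcc2. Smarca4 had 69.0 and 68.7 RPKM, and Smarca2 (Brm) was the lowest row, at 0.973 and 0.904 RPKM. Actl6a had 80.4 and 85.2 RPKM and Dpf2 had 29.2 and 28.9 RPKM, both of which have neuronal counterparts. In NuRD, all 15 rows were members, with Hdac1 highest (262 and 269.999 RPKM), Hdac2 at 58.8 and 60.4 RPKM, Chd4 at 95.6 and 95.9 RPKM, Mbd3 at 44.5 and 45.9 RPKM and Chd5 lowest (1.499 and 1.26 RPKM).

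For 22 pairs of related genes, levels were set side by side. The pairs were chosen with their levels known and the higher gene was put first, so the ratios are a description, and other relatives can lie between or above them, as Tet2 does for Tet1. The ratio of mean levels was 73.4 for Smarca4 over Smarca2, 13.7 for Smarcc1 over Smarcc2, 29.7 for Chd4 over Chd3 and 9.94 for Ezh2 over Ezh1. It was 2.02 for Hk2 over Hk1 and 1.43 for Slc2a3 over Slc2a1, the smallest of the 22. For Eno1 over Eno2, the enolase of neurons, it was 304, and for Hmga1 over Hmga2 it was 125. In relative terms the ratio differed most between the libraries for Cox4i1 over Cox4i2, with 88.95 and 137.

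**Figure D3:**
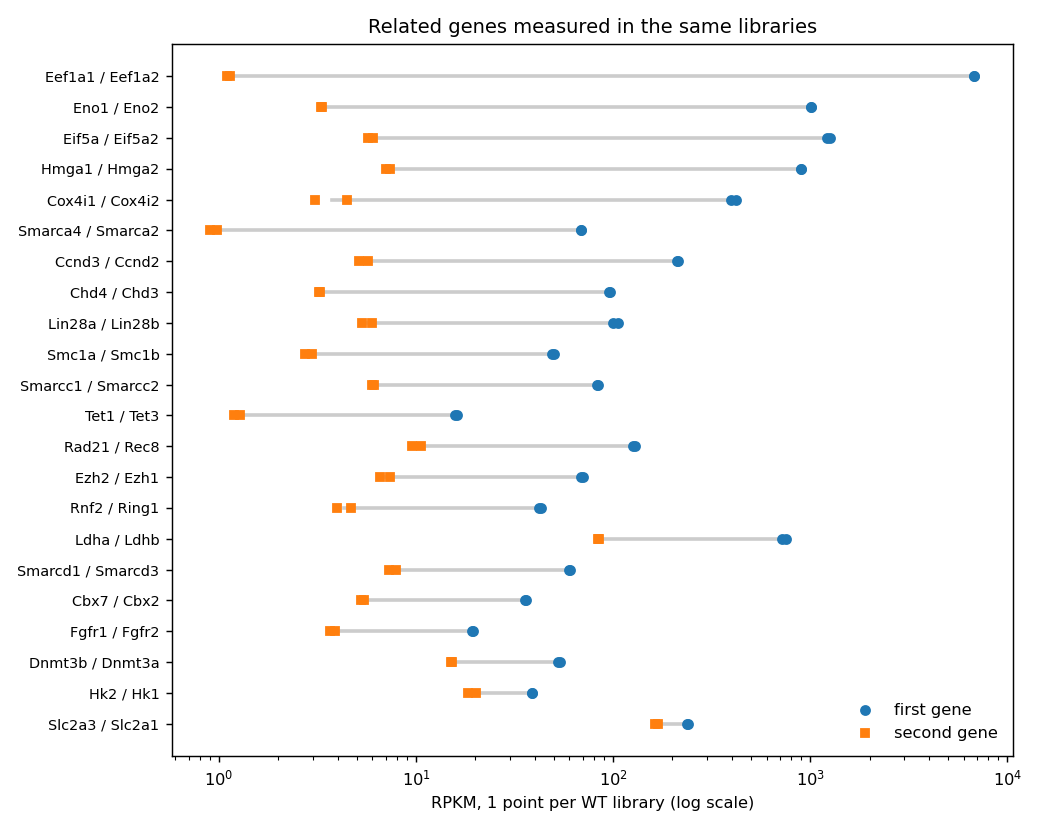
RPKM (log scale) of 22 pairs of related genes, 1 point per WT library, with the first gene as circles, the second as squares and a line joining the means. The widest gap is that of Eef1a1 and Eef1a2, and the narrowest that of Slc2a3 and Slc2a1.

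Histone genes were listed as variants and as replication-dependent genes. Messages of variant histones carry poly(A) tails, whereas most messages of replication-dependent histones end in a stem-loop, and the libraries were made from RNA selected by its poly(A) tail. All 21 rows of variants and architectural proteins were members (medians 198 and 209.8 RPKM), with H2afz at 614 and 644 RPKM, H3f3a at 407 and 424 RPKM, H3f3b at 216 and 209.8 RPKM and Hmgb1 at 238 and 243 RPKM. Npm1, a nucleolar chaperone, was highest at 2614 and 2769 RPKM and Hmga2 lowest at 7.02 and 7.37 RPKM. Replication-dependent histones had 55 members of 65 rows but medians of 2.36 and 2.13 RPKM. The families differed: the median row mean was 39.6 RPKM for H2A (18 rows), 2.07 for H2B (17 rows), 1.87 for H3 (12 rows), 1.93 for H4 (13 rows) and 0.982 for H1 (5 rows). Hist1h2ao, given in 2 rows of equal values (225 and 195 RPKM), was highest and Hist1h2br lowest (0.425 and 0.377 RPKM), and the linker histone Hist1h1c had 5.79 and 4.49 RPKM. Near-identical copies share reads, so the levels of single histone genes are uncertain. The 18 H2A rows, which hold repeated rows and near-identical copies and are not separate observations, were all higher in WT replicate 1, as were 6140 of the 11474 long members. The letters TTTGCAT, part of the octamer known from histone H2B promoters, were present in 14 of 57 matched windows of this list (24.6%), and TATAAA at 20 to 40 bases before the start in 12 of them (21.1%, against 1.65% of all matched windows).

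In the Fgf and Erk pathway, which the Mek inhibitor blocks in the middle, all 34 rows were members (medians 35.9 and 36.5 RPKM). The ligand Fgf4 had 86.5 and 85.0 RPKM and its receptor Fgfr1 had 19.3 and 19.4 RPKM, against 3.66 and 3.89 RPKM for Fgfr2. Eras, a Ras protein of ESCs, had 13.8 and 13.7 RPKM, and Map2k1, which encodes Mek1 itself, had 40.4 and 41.7 RPKM. Genes that Erk activity is known to switch on had these levels: Egr1, an immediate early factor, 238 and 211 RPKM, Spry2, a feedback inhibitor, 119.6 and 108 RPKM, Spry4, another, 116 and 111.02 RPKM, and the Erk phosphatase Dusp6 54.3 and 53.0 RPKM. Fos and Junb, parts of AP-1, had 35.8 and 34.1 RPKM and 41.8 and 42.0 RPKM, and Fosl1 was the lowest row (1.85 and 1.88 RPKM). Egr1 was the highest row of the list. No library of the series was grown without the inhibitors, so these levels cannot be set against another medium.

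Wnt pathway genes had 23 members of 26 rows (medians 9.48 and 9.13 RPKM). Ctnnb1, which encodes beta-catenin, the protein that Gsk3 inhibition stabilises, was highest with 201 and 204 RPKM. Gsk3b, the kinase itself, had 8.43 and 8.12 RPKM and the nuclear effector Tcf7 had 26.5 and 25.1 RPKM. Known targets were uneven, with Cdx1 at 15.3 and 13.4 RPKM, Axin2 at 3.71 and 3.68 RPKM, Nkd1 at 1.20 and 1.14 RPKM and Sp5 at 0.811 and 0.754 RPKM. In the Bmp and Nodal list, all 25 rows were members (medians 9.03 and 10.7 RPKM). Bmp4 had 29.4 and 29.3 RPKM, and the Id genes, targets of Bmp signalling, had 50.7 and 44.4 RPKM (Id1), 43.8 and 43.8 RPKM (Id2) and 36.1 and 38.0 RPKM (Id3). The effector Smad1 had 2.01 and 2.11 RPKM, the inhibitor Smad7 had 16.3 and 15.9 RPKM, and Smad6 was lowest (1.37 and 1.20 RPKM).

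Cyclins, their kinases and inhibitors drive and brake the cell cycle, and 26 of the 29 rows listed were members (medians 36.2 and 34.9 RPKM). Cdk4 was highest with 307 and 323 RPKM, Ccnb1 had 164 and 172 RPKM and Ccne1 had 163 and 164 RPKM. Of the D cyclins, Ccnd3 had 213 and 210.4 RPKM, Ccnd1 had 24.2 and 25.5 RPKM and Ccnd2 had 5.15 and 5.70 RPKM. Cdk1 had 39.5 and 40.4 RPKM. Trp53 (p53) had 296 and 298 RPKM and its target Cdkn1a (p21) had 216 and 198 RPKM, whereas Cdkn2a, of the senescence locus, had 9.25 and 10.6 RPKM and Ccna1, the germ cell cyclin A, had 1.32 and 0.877 RPKM. Ccne2 was listed at 0 in both libraries. Replication genes had 37 members of 38 rows (medians 42.9 and 46.97 RPKM), led by the clamp Pcna at 422 and 434 RPKM, with the helicase subunits Mcm6, Mcm2 and Mcm5 at 188 and 195, 162 and 169, and 118 and 124 RPKM. Rfc4, a subunit of the clamp loader, was listed at 0 in both libraries while the other loader subunits were members, and such a 0 can be a failed estimate.

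All 6 rows of NatA, the complex that acetylates protein N-termini and holds the gene the series deletes, were members in WT cells. Naa10 is joined with Renbp (104.8 and 105.6 RPKM), Naa15, the scaffold, had 44.5 and 46.6 RPKM, Naa50 had 59.1 and 61.8 RPKM and Naa11, an intronless copy of Naa10 whose reads may be shared with it, was lowest (8.61 and 8.58 RPKM). On the sex chromosomes, 380 long members lay on X, with a median of 8.12 and 8.49 RPKM against 10.6 and 10.5 RPKM for 11047 autosomal ones. Xist, the RNA that coats an inactive X, had 0.506 and 0.531 RPKM, and its activator Rlim had 38.3 and 38.1 RPKM. Of the Y-linked genes, Ddx3y (0.754 and 0.992 RPKM), Eif2s3y (0.482 and 0.705 RPKM) and Uty (0.463 and 0.448 RPKM) were all below the limit, so 0 rows of Y were members. The labels do not give the sex of the cells.

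Promoter windows of members differed in base content by level. CG pairs are lost over evolution where they are methylated, and the ratio of observed to expected CG marks CpG islands. A ratio of 0.6 or more was found in 43.9% of 1692 windows of long rows that were not members, in 62.0% of 2938 in the lowest tertile of members by level, in 78.7% of 2937 in the middle tertile and in 82.8% of 2937 in the highest tertile. The letters CCGGAAG that ETS factors bind, on either strand, followed the same order, with 8.22%, 12.6%, 19.7% and 23.8% of windows. The letters hold a CG themselves, so the 2 measures are not independent. Genes of one group did not all follow their level. Of the general pluripotency factors 8 of 17 windows (47.1%) and of the fibroblast markers 7 of 23 (30.4%) reached 0.6, whereas 10 of 13 mesoderm and 11 of 12 neuroectoderm windows did, although the medians of these lists lay near 1 RPKM.

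**Figure D4:**
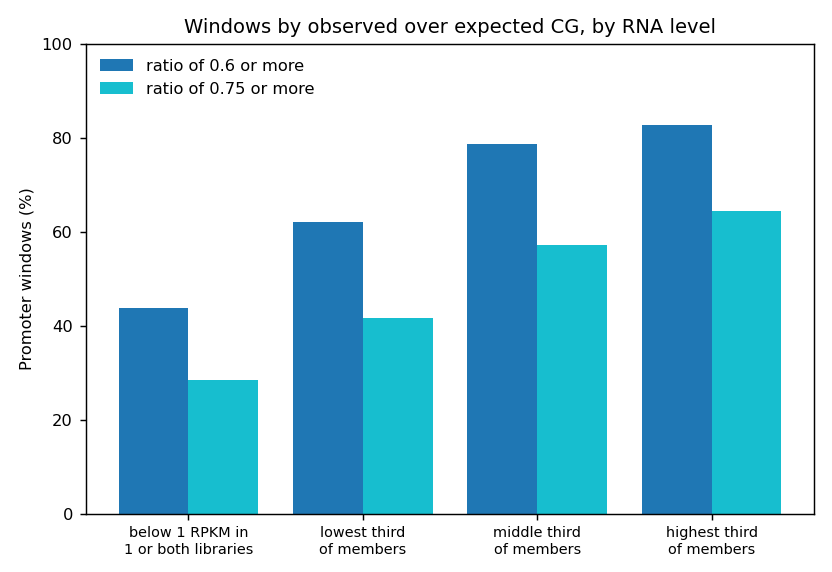
Share of RefSeq promoter windows (%) whose ratio of observed to expected CG is 0.6 or more, or 0.75 or more, for long rows outside the members and for members in tertiles of mean RPKM. Both shares are higher in each step, from 43.9% to 82.8% for the lower limit.

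The contrast is visible in the sequences, chosen after their values were seen. Nanog and Esrrb, with mean levels of 256 and 246 RPKM, have few CG pairs, Sox2 has many at 217 RPKM, and Gsc has many at 0.469 RPKM. Each window is printed from 250 bases before to 50 bases after the RefSeq start with every CG in capitals.
Nanog chr6:122707239-122707538 (plus strand): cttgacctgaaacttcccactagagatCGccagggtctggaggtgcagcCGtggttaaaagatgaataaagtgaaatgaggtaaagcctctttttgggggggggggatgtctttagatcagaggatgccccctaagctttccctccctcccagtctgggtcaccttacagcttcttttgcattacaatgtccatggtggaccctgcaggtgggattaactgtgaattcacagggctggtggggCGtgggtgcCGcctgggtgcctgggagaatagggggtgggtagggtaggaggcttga
Esrrb chr12:86360867-86361166 (plus strand): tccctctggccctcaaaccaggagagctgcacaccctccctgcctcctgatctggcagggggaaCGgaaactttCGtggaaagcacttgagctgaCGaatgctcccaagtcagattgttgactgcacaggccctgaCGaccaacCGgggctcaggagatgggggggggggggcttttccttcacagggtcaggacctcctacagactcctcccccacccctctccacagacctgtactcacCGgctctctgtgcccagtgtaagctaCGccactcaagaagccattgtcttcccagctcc
Sox2 chr3:34649745-34650044 (plus strand): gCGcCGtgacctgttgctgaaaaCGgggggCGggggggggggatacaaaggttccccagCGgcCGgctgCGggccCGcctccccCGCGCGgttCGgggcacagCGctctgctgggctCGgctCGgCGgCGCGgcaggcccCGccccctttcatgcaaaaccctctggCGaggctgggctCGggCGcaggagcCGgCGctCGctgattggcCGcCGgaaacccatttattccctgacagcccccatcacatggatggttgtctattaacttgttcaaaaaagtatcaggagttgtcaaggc
Gsc chr12:104473187-104473486 (minus strand): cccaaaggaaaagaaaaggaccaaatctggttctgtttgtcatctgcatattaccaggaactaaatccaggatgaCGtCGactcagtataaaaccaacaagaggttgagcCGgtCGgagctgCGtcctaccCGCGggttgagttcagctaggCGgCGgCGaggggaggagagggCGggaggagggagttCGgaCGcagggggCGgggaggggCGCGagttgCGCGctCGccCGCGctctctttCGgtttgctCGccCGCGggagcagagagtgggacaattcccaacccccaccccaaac
The windows of Nanog and Esrrb hold 4 and 7 CG pairs (ratios 0.192 and 0.266), that of Sox2 holds 27 (0.819) and that of Gsc holds 25 (0.934). Pou5f1 and Zfp42 have 11 each, with ratios of 0.374 and 0.441, so 4 of the 5 stem cell markers lie below 0.6.

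The 2 libraries gave nearly the same levels. On the log2(RPKM + 1) scale the median absolute difference of the long members was 0.05, and 95% of them differed by less than 0.21. It was 0.07 at 1 to 2 RPKM and 0.03 at 1000 RPKM or more. The added 1 RPKM shrinks differences at low levels, so these 2 values cannot be compared directly. Over single-transcript genes, chi-square per gene on estimated fragments had a mean of 1.89 and a median of 0.822 at 100 to 500 fragments, and a mean of 8.41 and a median of 1.84 at 2000 to 10000. These values were used only to see whether both files could hold the same library, and both libraries were kept. Of 7985 long members with a mean of 5 RPKM or more, 16 differed by over 0.5, with 8 in each direction.

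Among long members with a mean of 5 RPKM or more, the row most in favour of WT replicate 1 was Igf2. Igf2, a paternally expressed growth factor, had 13.5 and 6.01 RPKM (log2 difference -1.05). Cdkn1c, a maternally expressed inhibitor of the cell cycle, had 25.5 and 17.8 RPKM and is named after its values were seen. The other 4 of the 5 rows most in favour of WT replicate 1 were Cnbd2 (12.95 and 7.55 RPKM), the centromere protein gene Cenpk (11.98 and 7.004 RPKM), Gm13212 (203 and 128 RPKM) and Sh3yl1 (6.96 and 4.52 RPKM). In the other direction stood Snhg9, a host of a small nucleolar RNA, with 1.91 and 12.1 RPKM, 1110051M20Rik with 4.61 and 11.8 RPKM, Cdc123 with 40.02 and 86.1 RPKM, Cacna1a with 5.95 and 11.002 RPKM and the joined row of Kdm6b and Tmem88 with 21.5 and 36.8 RPKM. Some rows could not be compared, because 38 long rows were listed at 0 in 1 library and at 1 RPKM or more in the other. Thyn1 is the highest of them, listed at 0 and 46.1 RPKM and named after its values were seen, and it is outside the members for that reason.

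**Figure D5:**
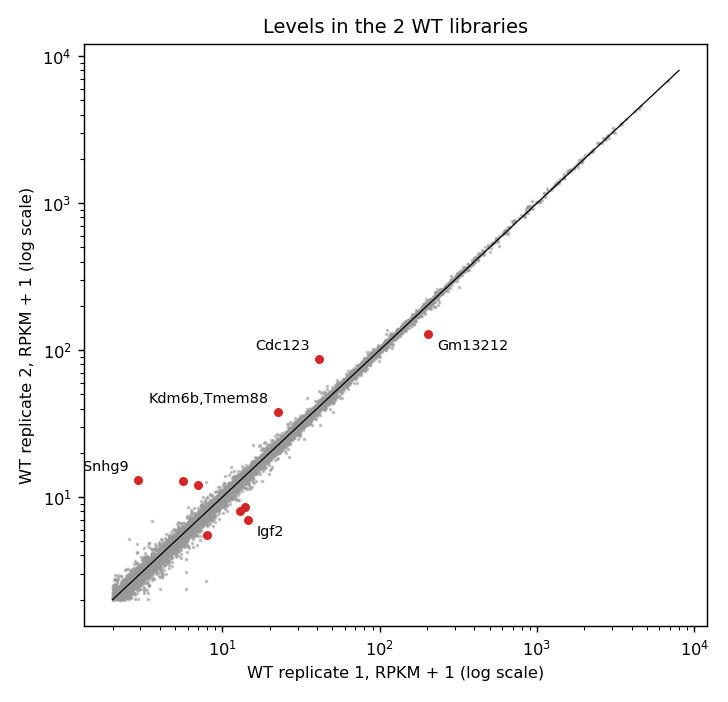
RPKM + 1 in WT replicate 2 against WT replicate 1 for the 11474 long members, both axes on log scales, with the line of equal values and the 5 rows of largest log2 difference in each direction at a mean of 5 RPKM or more in red. Nearly all points lie along the line, and Snhg9, Cdc123, Igf2 and Gm13212 lie off it.

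Small RNA rows made up 138 of the members but 25.9% and 24.5% of the summed RPKM of all rows. Fragments of this library are longer than most small RNAs, so a hairpin row divides few fragments by a very short effective length. The highest row of all, Mir682, had 38106 and 38714 RPKM on about 3028 and 3140 fragments, and Mir6935 had 1935 and 1777 RPKM on 16 and 15 fragments, both named after their values were seen. These rows were therefore left out of the ranking of long members. Of 129 hairpin values below 100 fragments, 108 lay within 0.03 of a whole number of fragments, but the depth was fitted to these same rows.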

How the data were processed

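Polyadenylated RNA of WT ESCs was read in 2 libraries. The deposited tables hold 1 RPKM value per row and library, per the file headers. Cufflinks, bedtools and the build mm9 are named, per the submitters' processing notes, while for aligner and annotation the sources used here give nothing. Rows that join symbols were kept as deposited. A row was a member at 1 RPKM or more in both libraries, and log2 differences used a pseudocount of 1 RPKM. No comparison was tested, since the cells form 1 group of 2 libraries, and a chi-square on estimated fragments served only to check for a duplicated library.

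Depth was estimated from hairpin rows, whose values mostly step by whole fragments under a fragment length of 200 ± 80 nt with a minimum of 47 nt. These settings placed 9 of 13 hairpin lengths in WT replicate 1 and 12 of 15 in WT replicate 2 within 0.2% of one total, and were chosen to do so. Fragments of genes rest on this estimate and on GENCODE transcript lengths.

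Genes are named from a fixed choice for each of 42 gene lists, plus the 15 highest long rows, the highest and lowest row of each list and the rows at the limit. Also named are the 5 largest library differences in each direction among long members with a mean of 5 RPKM or more. The members, lists and sequence searches were chosen with earlier results of these data known. Promoter windows were matched by symbol to RefSeq (GRCm38.p6), the first listed window per gene, with no conversion of coordinates. Alternatives were other limits and rows, rescaled values, a pseudocount of 0.1 and each library alone. Python 3.11.15, pandas 2.3.3, numpy 2.4.6, scipy 1.17.1 and matplotlib 3.10.9 were used. The depth estimate, the count of library differences and the CG ratio were run on simulated data. The simulated hairpins used the same fragment length settings, so they cannot show that these settings hold for the libraries. Some genes that this rule names are not reported here, and Olig1, Olig2, Neurod1, Dll1, Lgals1, Cyr61, Ctgf, Psmb10, Nodal and Eno2 are named after their values were seen.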

Additional observations from a re-analysis of the deposited data

How the results depend on the processing

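No paired analysis was possible because the cells form 1 group and no genotype comparison was made. The number of members ran from 8008 at 5 RPKM to 12750 at 0.5 RPKM, and the 1005 listed rows that were members from 855 to 1042, all within 1.5 times of the reported counts. By list, 11 of 42 counts moved by more at 5 RPKM (those of the mesoderm, endoderm, neuroectoderm, trophoblast, germ cell, 2-cell-like, fibroblast, replication-dependent histone, Wnt, blood and endothelial lists) and 4 at 0.5 RPKM (mesoderm, Y-linked, X-inactivation and endothelial). The median level of members, 10.5 RPKM, was 14.9 when each library was rescaled to one common sum (as in TPM), 7.18 without a filter, 19.2 at 5 RPKM in both, 10.38 without small RNA rows, and 10.396 to 10.397 with either library alone. The median of the 42 list medians, 25.6 RPKM, was 36.3 after rescaling and 28.8 without joined rows. The 100 highest members of all kinds held 46.4% of summed RPKM, 35.6% without small RNA rows and 45.96% to 46.3% with either library alone. Rescaling raised every level by a like factor, since the deposited sums were 709237 and 702286 RPKM. With a CG ratio limit of 0.75 the shares of windows were 54.4% for all members, 28.4% for rows outside them and 41.6%, 57.1% and 64.4% for the tertiles from lowest to highest level. Depth limits the rows near 1 RPKM, and 2 libraries give no more than a range.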
